A study of Homo sapiens with 2 samples.

Results

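The 9 long non-coding RNAs (lncRNAs) AC131094.1, AL353751.1, AL009031.1, AC025171.5, LNCPRESS1, LINC00458, LINC02334, LINC01108 and PCAT14 were followed in single human embryonic stem cells (hESCs) exposed to bone morphogenetic protein 4 (BMP4). They were taken by symbol from a table of 33538 genes, of which the annotation calls 12717 lncRNAs, and each of the 9 was found in both libraries. They had been selected on measured values of these same cells, since their levels differed between the libraries or led groups of cells. Their levels, their ratios between libraries and their detection beside state markers are therefore a description of the data, and no test was made on them.

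Transcripts were counted by 10x Genomics 3′ single-cell RNA sequencing in H1, an established hESC line, to see how the BMP4 response differs when GATA3, a zinc-finger transcription factor, is targeted. Both libraries came from cells grown on Matrigel in mTeSR1 medium with 50 ng/ml BMP4 for 48 h. The libraries are named WT and GATA3 KO here after their labels. WT cells were unmodified H1. GATA3 KO cells were KO-GATA3-06, 1 clone made with Cas9 from H1 cells that carry a Cas9 cassette inducible by doxycycline, and the effects of clone, cassette and genotype cannot be told apart. For the WT library, 1 of its protocol fields states 1 h of BMP4 whereas the title and the recorded duration state 48 h. The GATA3 transcript was at 12.7 and 10.9 unique molecular identifiers (UMIs) per 1000000 (CPM) in the WT and GATA3 KO libraries, and since 3′ counts do not show the coding sequence, this does not check the labels. There was 1 library per group, so every interval below is a 95% interval of counting error alone.

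After limits of 7500 detected genes and 25% mitochondrial counts, 2519 of 3802 cells were kept in the WT library and 4450 of 6221 in the GATA3 KO library, with median depths of 44415 and 43131.5 UMIs per cell. To compare shares of cells at equal depth, each cell was thinned to 10000 UMIs, which 2173 and 4038 cells allowed. Of all kept cell barcodes, 5 were shared by the libraries. The cell type of the labels was checked by 10 pluripotency genes, which summed to 3508.5 CPM in the WT library and 4581.3 CPM in the GATA3 KO library. A list of 5 fibroblast genes stood at 81.3 and 82.5 CPM, almost all of it from 2 collagens, COL1A1 and COL1A2.

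LncRNAs are transcripts without a long reading frame, many of which are made in only a few cell types, so they can mark a cell state closely. SOX2 is a transcription factor that helps hold the pluripotent state. MIXL1, a homeobox factor, and EOMES, a T-box factor, are switched on as cells enter the primitive streak, the site where mesoderm and endoderm arise. TFAP2A, an AP-2 factor, marks surface ectoderm, amnion and trophoblast. Among the 9 lncRNAs, LNCPRESS1 is known as a p53-controlled transcript of pluripotent cells that binds the deacetylase SIRT6, LINC00458 and LINC01108 as transcripts of pluripotent cells, and PCAT14 as a prostate-cancer-associated transcript from an endogenous retrovirus locus.

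A 3′ count arises near the end of a transcript, so the last 120 bases are shown for 4 members, of which AL353751.1, AC025171.5 and LINC00458 were lower and LNCPRESS1 higher in the GATA3 KO library, as described with their levels. They were read from GRCh38 at the end of each canonical transcript model, 5′ to 3′ on the transcribed strand. Capitals mark the polyadenylation signal AATAAA.
AL353751.1 (chr10:89292006-89292125, plus strand): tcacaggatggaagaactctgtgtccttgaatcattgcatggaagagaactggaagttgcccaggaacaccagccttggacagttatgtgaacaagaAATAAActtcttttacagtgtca
AC025171.5 (chr5:43034516-43034635, plus strand): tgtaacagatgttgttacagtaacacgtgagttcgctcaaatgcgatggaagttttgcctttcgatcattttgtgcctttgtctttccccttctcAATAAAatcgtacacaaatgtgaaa
LINC00458 (chr13:53950255-53950374, minus strand): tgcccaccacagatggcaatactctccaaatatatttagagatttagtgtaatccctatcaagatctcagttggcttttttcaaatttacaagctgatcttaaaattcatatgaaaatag
LNCPRESS1 (chr7:101301227-101301346, plus strand): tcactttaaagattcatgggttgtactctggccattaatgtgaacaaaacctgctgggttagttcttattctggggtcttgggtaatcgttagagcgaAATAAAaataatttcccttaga
The signal AATAAA starts 22 to 25 bases before the end in AL353751.1, AC025171.5 and LNCPRESS1. Neither AATAAA nor its variant ATTAAA was found in the 120 bases of LINC00458. The 9 genes lie on chromosomes 4, 5, 6, 7, 10, 13 and 22, with AL009031.1 and LINC01108 both on 6 and LINC00458 and LINC02334 both on 13.

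How far these ends are unique decides how well a read can be placed. In the last 500 bases of the canonical transcript, none of the 451 windows of 50 bases was found more than once in the genome for AC131094.1, AC025171.5, LNCPRESS1, LINC00458 or LINC01108. Windows across a splice site, 80 for LINC00458, 94 for AL353751.1 and 45 for AL009031.1, have no match in the genome and counted as not repeated. The share of repeated windows was 11.1% for PCAT14, 13% for AL353751.1 (58 of 446 windows), 29.3% for AL009031.1 and 64.7% for LINC02334. By this measure the counts of LINC02334 and AL009031.1 are the least certain, and the last 30 bases of these transcripts were also found in transcripts of 10 and 4 other genes. Only the end of the canonical transcript of each gene was examined. The gene models hold 16 transcripts for LINC00458, 9 for AL353751.1 and 6 for LINC02334, and reads from their other ends were not covered.

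The members differed in level by more than 2 orders of magnitude within each library. In the WT library, LINC00458 stood highest at 267.1 CPM (263.9 to 270.3), followed by PCAT14 at 117.3, AC131094.1 at 50.0, AL009031.1 at 32.6, AL353751.1 at 25.8, LNCPRESS1 at 17.1, AC025171.5 at 10.0, LINC01108 at 2.88 and LINC02334 at 0.542 CPM. The counting intervals of neighbours in this order did not overlap. The order in the GATA3 KO library was PCAT14 at 81.7 CPM (80.3 to 83.0), LNCPRESS1 at 46.0, LINC00458 at 16.7, LINC02334 at 4.02, LINC01108 at 1.27, AL009031.1 at 1.06, AC131094.1 at 0.747, AL353751.1 at 0.348 and AC025171.5 at 0.103 CPM. Here the intervals of LINC01108 (1.11 to 1.45) and AL009031.1 (0.909 to 1.22) overlapped. These values count 3′ ends and were not divided by transcript length.

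**Figure D1:**
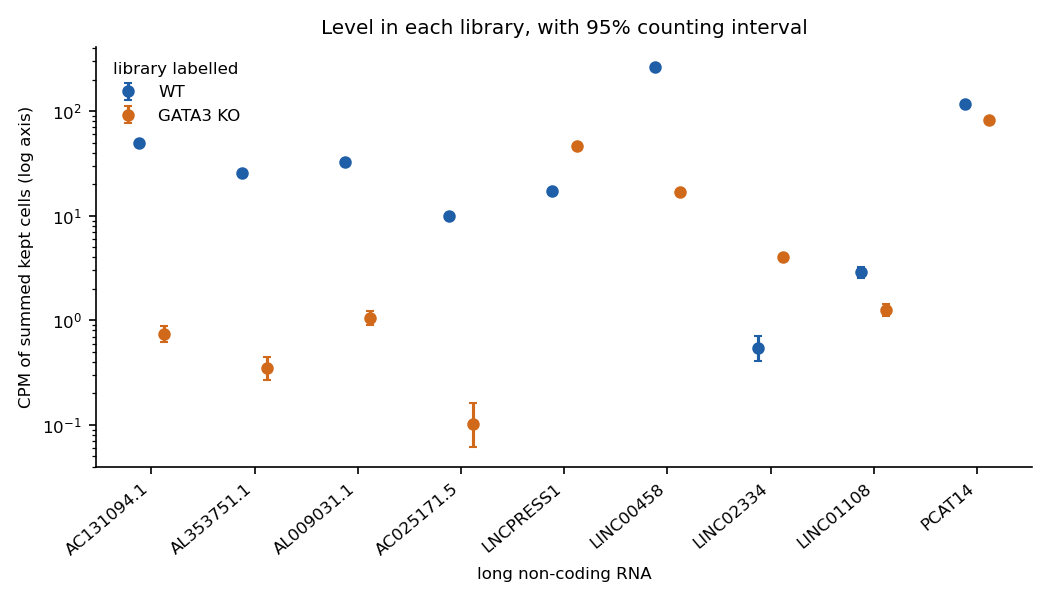
Level of each of the 9 lncRNAs in the summed kept cells (CPM, log axis) in the WT and GATA3 KO libraries, with exact Poisson 95% intervals of counting error. AC131094.1, AL353751.1, AL009031.1, AC025171.5 and LINC00458 sit lower in the GATA3 KO library, LNCPRESS1 and LINC02334 higher, and LINC01108 and PCAT14 lie closest together.

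Between the libraries, 5 of the 9 members were at least 2-fold lower in the GATA3 KO library on the scale of log2(CPM + 1), and 2 were at least 2-fold higher. Among all 5529 genes that reached 20 CPM in either library, 1.99% were lower and 2.41% higher by that size, and among the 74 lncRNAs of at least 20 CPM these shares were 18.9% and 1.35%. Since the members were chosen for such differences, nothing is read from their excess. Of the 9 members, 6 reached 20 CPM. Their median ratio was -3.98 on the log2 scale, against -0.45 for the 74 lncRNAs and 0.07 for all genes of that level, and the median of all 9 members was -3.32.

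The 4 lowest ratios among the 74 lncRNAs belonged to AC131094.1 (-4.87), AL353751.1 (-4.31), AL009031.1 (-4.03) and LINC00458 (-3.92). The next were LINC01356 at -3.13 (368.2 against 41.2 CPM) and LINC00467 at -2.02. LNCPRESS1 had the highest ratio of the 74, 1.38, and the next was AC092490.1 at 0.90. PCAT14 stood at rank 30 from the lowest with -0.52. AC025171.5 (-3.32), LINC02334 (1.70) and LINC01108 (-0.78) lie under 20 CPM and are not among the 74.

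**Figure D2:**
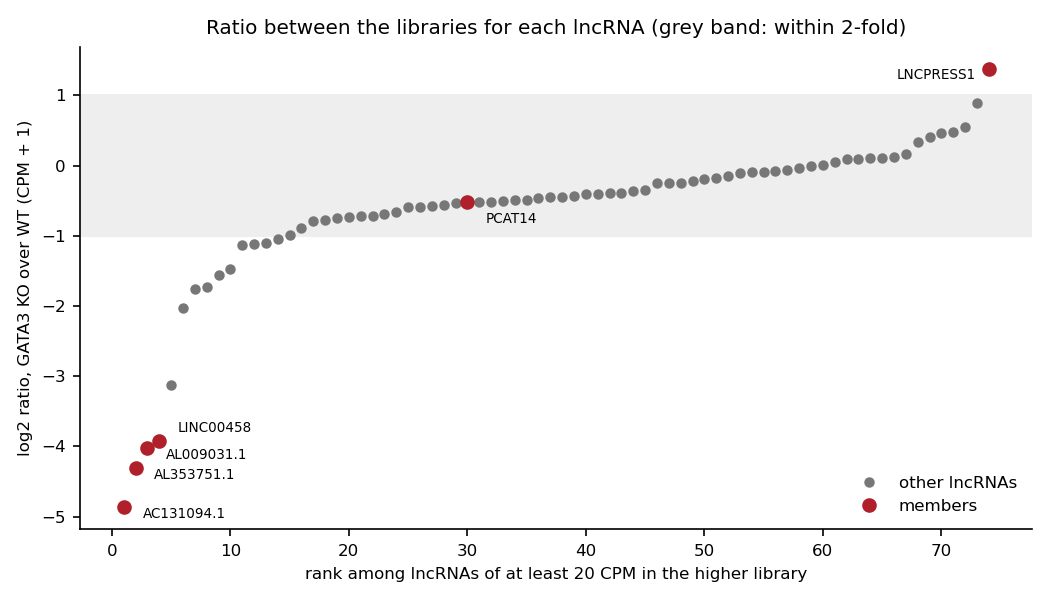
Log2 ratio of the GATA3 KO library over the WT library, of CPM + 1, for the 74 lncRNAs of at least 20 CPM, ordered from lowest to highest, with the 6 members of that level marked. The members hold ranks 1 to 4, rank 30 (PCAT14) and rank 74 (LNCPRESS1).

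AC131094.1, AL353751.1, AL009031.1 and AC025171.5, clone-named lncRNAs for which no function is stated here, were high in the WT library and near the floor in the GATA3 KO library. AC131094.1 (ENSG00000249945, chromosome 4, 175457726 to 175473197, minus strand) had 4979 UMIs in the WT library and 131 in the GATA3 KO library, or 50.0 CPM (48.6 to 51.4) against 0.747 CPM (0.625 to 0.887). This is a 66.9-fold lower level without a pseudocount (56.2 to 80.2). The other 3 were also lower by large factors without a pseudocount.

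AL353751.1 (ENSG00000232110, chromosome 10, 89283636 to 89292125, plus strand) had 2567 and 61 UMIs, a 74.1-fold lower level (57.5 to 97.1). AL009031.1 (ENSG00000282024, chromosome 6, 16259101 to 16264553, minus strand) had 3245 and 185 UMIs, 30.9-fold lower (26.6 to 36.0). AC025171.5 (ENSG00000272382, chromosome 5, 43033716 to 43034635, plus strand), a gene with 1 exon of 920 bases, had 999 and 18 UMIs, 97.7-fold lower (61.5 to 165.5). The wide interval of AC025171.5 reflects the 18 UMIs in the GATA3 KO library.

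At equal depth of 10000 UMIs, AC131094.1 was found in 389 of 2173 WT cells (17.9%) and in 20 of 4038 GATA3 KO cells (0.495%). For AL353751.1 the shares were 16.2% and 0.297%, for AL009031.1 21.5% and 1.16%, and for AC025171.5 5.71% and 0.0991%, the last being 4 cells. Their UMIs were unevenly spread over the WT cells. The 10% of cells with most UMIs of the gene held 94.2% of the UMIs of AC025171.5, 83.2% of those of AC131094.1, 68.1% for AL353751.1 and 61.9% for AL009031.1. A single WT cell held up to 114 UMIs of AC131094.1 before thinning, against at most 13 in a GATA3 KO cell.

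All 4 of these lncRNAs were found more often in cells with MIXL1 or EOMES. Among WT cells, 689 had at least 1 UMI of MIXL1 at equal depth and 1484 had none. AC131094.1 was found in 33.1% (29.6 to 36.7) of the former and 10.8% (9.31 to 12.5) of the latter, AL353751.1 in 34.0% and 7.95%, AL009031.1 in 39.6% and 13.1%, and AC025171.5 in 14.8% and 1.48%. With EOMES, found in 652 cells, the shares in cells with and without it were 30.1% and 12.7% for AC131094.1, 30.8% and 9.93% for AL353751.1, 36.5% and 15.1% for AL009031.1, and 14.1% and 2.10% for AC025171.5. The 4 were found at least 2-fold more often in cells with either marker, and no other member was. LINC00458, found in 44.5% of cells without MIXL1, had little room for a 2-fold higher share and is described below. Of the 13128 genes found in at least 1% of these cells, 2.01% were 2-fold more frequent in cells with MIXL1 and 1.73% in cells with EOMES. The median depth before thinning was 48802 UMIs in cells with MIXL1 and 46386 in cells without it.

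**Figure D3:**
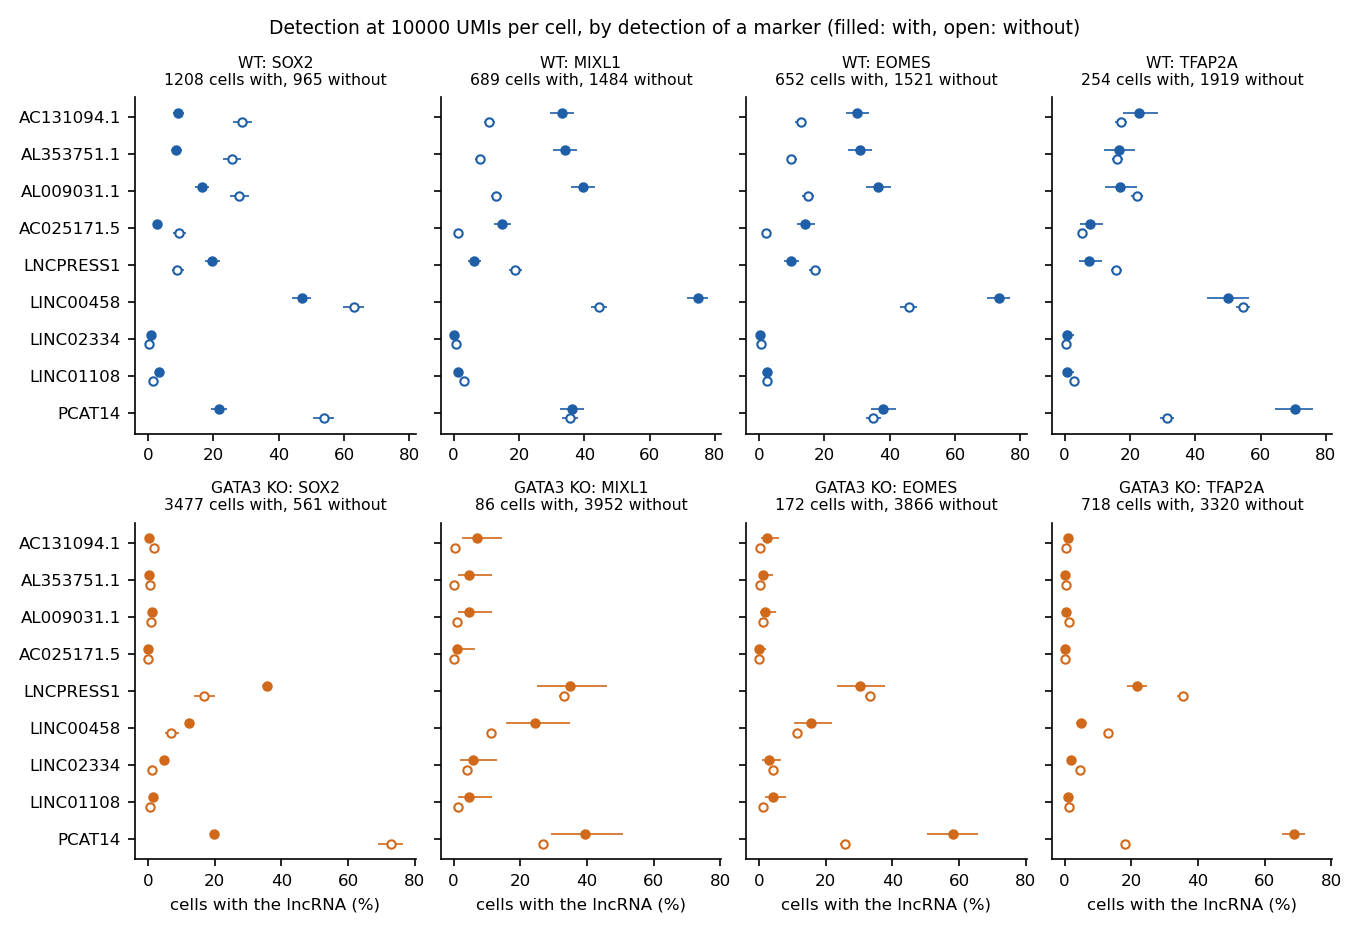
Share of cells (percent, at 10000 UMIs per cell) in which each of the 9 lncRNAs was found, among cells with and without at least 1 UMI of SOX2, MIXL1, EOMES or TFAP2A, in each library, with exact Clopper-Pearson 95% intervals of counting error. Among WT cells the shares of AC131094.1, AL353751.1, AL009031.1 and AC025171.5 are higher with MIXL1 and EOMES, those of LNCPRESS1 higher with SOX2, and that of PCAT14 higher with TFAP2A.

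Seen from the lncRNAs, MIXL1 was found in 82.3% of the WT cells with AC025171.5, 66.5% of those with AL353751.1, 58.6% of those with AC131094.1 and 58.5% of those with AL009031.1, against 31.7% of all cells. AC025171.5 was the rarest of the 4 and its cells held MIXL1 most often. Over the number of MIXL1 UMIs its share was 1.48% of cells with none, 2.91% of cells with 1, 11.9% of cells with 2 to 3, and 24.8% of cells with 4 or more. For AC131094.1 the same series was 10.8%, 28.6%, 34.0% and 35.6%, so most of its difference lay between no UMI and 1 UMI of MIXL1.

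Against SOX2 the series ran downward. AC131094.1 was found in 28.7% of WT cells with no SOX2 UMI, 17.0% of cells with 1, 7.32% of cells with 2 to 3, and 3.21% (1.61 to 5.67) of cells with 4 or more. AL353751.1 went from 25.6% to 2.04% over the same bins. AL009031.1 and AC025171.5 were found in 7.87% and 0.875% of the cells with 4 or more. At shares this low, free RNA in the droplets and a low level in the cell cannot be told apart.

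**Figure D4:**
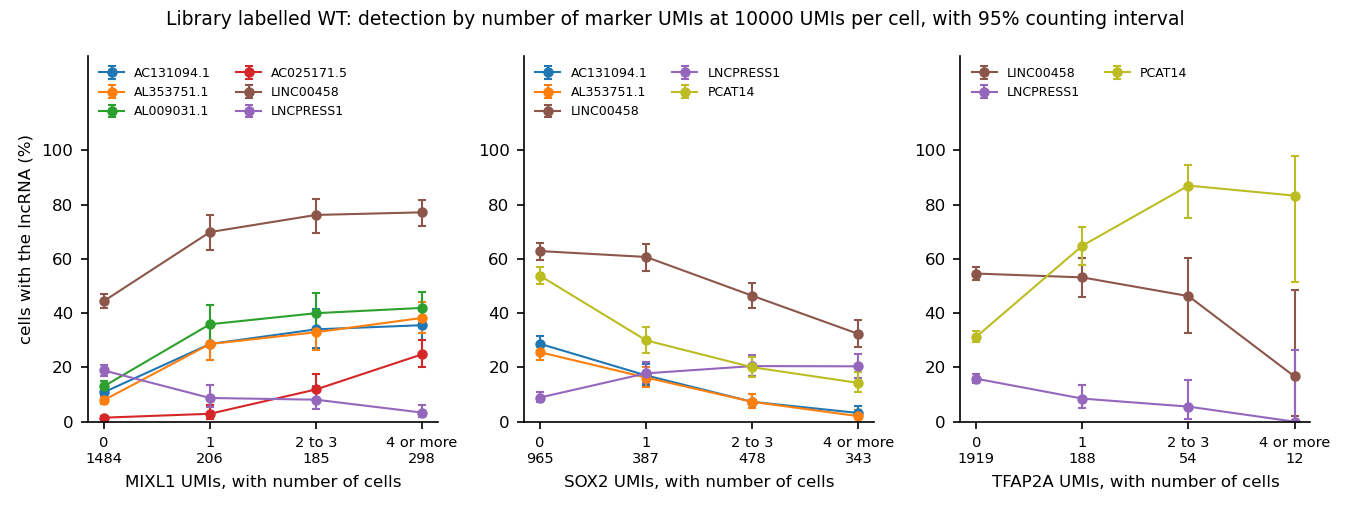
Share of WT cells (percent, at 10000 UMIs per cell) with 7 of the lncRNAs against the number of UMIs of MIXL1, SOX2 or TFAP2A in the cell (0, 1, 2 to 3, 4 or more), with exact Clopper-Pearson 95% intervals of counting error. The share of AC025171.5 goes from 1.48% to 24.8% over the MIXL1 bins, and that of PCAT14 goes from 53.8% to 14.3% over the SOX2 bins.

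These 4 lncRNAs were also found together. Of WT cells, 149 held both AC131094.1 and AL353751.1, where the product of their shares gives 63.0 cells. AC131094.1 and AL009031.1 shared 169 cells against 83.6, AL353751.1 and AL009031.1 153 against 75.7, AL353751.1 and AC025171.5 47 against 20.1, and AC131094.1 and AC025171.5 46 against 22.2. AL009031.1 and AC025171.5, the pair nearest to its product, shared 45 against 26.6. At least 1 of the 4 was found in 851 WT cells (39.2%) and in 79 GATA3 KO cells (1.96%). MIXL1 or EOMES was found in 24.1% of the 1322 WT cells with none of the 4, 58.6% of the 490 cells with 1, 74.3% of the 249 cells with 2, 89.4% of the 104 cells with 3, and all 8 cells with 4.

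Only 86 of 4038 GATA3 KO cells had MIXL1, and few cells lie behind each share. AC131094.1 was found in 6 of these 86 cells (6.98%, 2.60 to 14.6) and in 14 of the 3952 cells without MIXL1 (0.354%). AL353751.1 was found in 4 of the 86 and 8 of the 3952, AL009031.1 in 4 and 43, and AC025171.5 in 1 and 3. These 4, with LINC00458 and LINC01108, make 6 members found at least 2-fold more often with MIXL1, against 3.51% of the 13007 genes found in at least 1% of these cells. With EOMES, found in 172 cells, 4 members were 2-fold more frequent (AC131094.1, AL353751.1, LINC01108 and PCAT14), against 2.08% of genes. AC025171.5 was in 0 of the 172 cells with EOMES, which at 3 counts of the total allows a share of up to 1.74%, and in 0 of the 561 cells without SOX2, which allows up to 0.535%. Members found in under 1% of cells are counted here but are not among the genes of those percentages, in either library.

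LINC00458 (ENSG00000234787, chromosome 13, 53950255 to 54270397, minus strand), the most abundant member in the WT library, was also lower in the GATA3 KO library. It had 26596 and 2930 UMIs, or 267.1 (263.9 to 270.3) and 16.7 (16.1 to 17.3) CPM, a 15.98-fold lower level (15.4 to 16.6). At equal depth it was found in 54.1% and 11.5% of cells, and cells with 4 or more of its UMIs made up 23.3% and 0.396%. It had up to 193 UMIs in a WT cell and up to 27 in a GATA3 KO cell.

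LINC00458 was spread more widely over the states than the 4 lncRNAs above. It was found in 74.7% (71.3 to 78.0) of WT cells with MIXL1 and 44.5% of those without it, and in 47.0% of cells with SOX2 and 62.9% of cells without it. Neither ratio reached 2-fold, but a share of 44.5% without MIXL1 leaves little room for a 2-fold higher one. In percentage points its difference with MIXL1 was 30.3. Those of AC131094.1, AL353751.1, AL009031.1 and AC025171.5 were 22.2, 26.0, 26.55 and 13.3. Over the SOX2 bins its share went from 62.9% at no UMI to 32.4% at 4 or more. It was present in 79.7% of the cells with AC131094.1, 78.7% of those with AL353751.1 and 82.4% of those with AL009031.1. For GATA3 KO cells the shares were 24.4% (15.8 to 34.9) with MIXL1 and 11.2% without it, and 12.2% with SOX2 and 6.95% without it. Over 10 alternative settings the ratio of its share with SOX2 to that without ran from 0.52 to 1.15 in WT cells, so its direction turned, and from 1.01 to 4.46 in GATA3 KO cells.

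LNCPRESS1 (ENSG00000232301, chromosome 7, 101299558 to 101301346, plus strand) differed in the other direction. It had 1705 UMIs, 17.1 CPM (16.3 to 18.0), in the WT library and 8070 UMIs, 46.0 CPM (45.0 to 47.1), in the GATA3 KO library, a 2.69-fold higher level (2.55 to 2.84). At equal depth it was found in 14.9% and 33.0% of cells. Its UMIs were the most even of the members named so far, with 51.0% of them in the top 10% of WT cells and no cell of that library with 4 or more after thinning.

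In both libraries LNCPRESS1 was found more often in cells with SOX2. The shares with and without SOX2 were 19.6% (17.4 to 22.0) and 8.91% (7.19 to 10.9) in the WT library, and 35.6% (34.0 to 37.2) and 16.8% (13.8 to 20.1) in the GATA3 KO library. Over the SOX2 bins the share of LNCPRESS1 was 8.91%, 17.8%, 20.5% and 20.4% in the WT library. In the GATA3 KO library it was 16.8%, 34.6%, 39.5% and 33.8%, so most of the difference lay between no UMI and 1 UMI. Over the MIXL1 bins of the WT library its share went from 18.9% at no UMI to 8.74%, 8.11% and 3.36%. It was found in 6.24% (4.55 to 8.32) of all cells with MIXL1. The shares of GATA3 KO cells with and without MIXL1 that held it were 34.9% and 33.0%. LNCPRESS1 was found with AC025171.5 in 4 WT cells, where the product of shares gives 18.4 cells, and with AL353751.1 in 32 cells against 52.3.

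LINC02334 and LINC01108 lie under 20 CPM in both libraries. LINC02334 (ENSG00000274317, chromosome 13, 37934298 to 38066444, plus strand) had 54 UMIs, 0.542 CPM (0.407 to 0.708), in the WT library and 704 UMIs, 4.02 CPM (3.73 to 4.32), in the GATA3 KO library, a 7.41-fold higher level (5.61 to 9.96). It was found in 0.598% and 4.19% of cells at equal depth. Among GATA3 KO cells it was in 163 of 3477 with SOX2 (4.69%) and in 6 of 561 without it (1.07%). For WT cells these counts were 10 of 1208 and 3 of 965.

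LINC01108 (ENSG00000226673, chromosome 6, 14280127 to 14285454, minus strand) had 287 and 222 UMIs, 2.88 (2.56 to 3.24) and 1.27 (1.11 to 1.45) CPM. It was 2.28-fold lower in the GATA3 KO library without a pseudocount (1.90 to 2.72), and under 2-fold with the pseudocount of 1 CPM, at a log2 ratio of -0.78. It was found in 55 cells of each library, 2.53% and 1.36%. Of WT cells, 3.39% of those with SOX2 and 1.45% of those without it held LINC01108. The GATA3 KO shares were 1.47% and 0.713%, and it was found in 4 of the 86 cells with MIXL1.

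Taking the 9 members, 3 were found at least 2-fold more often in cells with SOX2 in the WT library (LNCPRESS1, LINC02334 and LINC01108), against 3.6% of the 13128 genes. These 3 and AC025171.5, the latter on 4 cells, made 4 members in the GATA3 KO library, against 7.13% of the 13007 genes. At least 2-fold less often in cells with SOX2 were 4 members in the WT library (AC131094.1, AL353751.1, AC025171.5, PCAT14), against 2.44% of genes, and 3 in the GATA3 KO library (AC131094.1, AL353751.1, PCAT14), against 3.42%. LNCPRESS1 was close to the 2-fold mark, with ratios of 2.20 and 2.13 in the WT and GATA3 KO libraries. Its ratio stayed at 2-fold or more in 7 of 10 alternative settings in the WT library and 5 of 10 in the GATA3 KO library, and that of LINC01108 in 2 of 10 and 8 of 10. These settings include that of at least 2000 detected genes, which repeated the main shares.

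Promoter sequences were held by the RefSeq table of GRCh38.p14 for 3 of the 9 members, the same 3 that went with SOX2. That of LNCPRESS1 is shown for its higher level in the GATA3 KO library, from 250 bases before to 50 bases after the RefSeq start. For LNCPRESS1 and LINC02334 the RefSeq start lies downstream of the gene start given above. Capitals mark ACACCT, the other-strand reading of AGGTGT, letters of the core that T-box factors such as EOMES bind.
LNCPRESS1 promoter (chr7:101299363-101299662, plus strand): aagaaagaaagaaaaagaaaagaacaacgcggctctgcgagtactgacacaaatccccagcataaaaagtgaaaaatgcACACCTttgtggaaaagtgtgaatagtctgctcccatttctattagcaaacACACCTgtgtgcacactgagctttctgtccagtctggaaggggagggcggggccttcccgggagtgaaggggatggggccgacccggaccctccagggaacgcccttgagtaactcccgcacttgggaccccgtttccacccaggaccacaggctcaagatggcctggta
The letters AGGTGT were found in this promoter at 2 places, at -171 and -120 from the RefSeq start, and once in that of LINC02334, at -24. On either strand, AGGTGT was in 11.4% of all 35116 promoters of the table. The GATA letters AGATAA (10.3% of all promoters), the SOX letters ACAATG (10.8%), the octamer ATGCAAAT (1.77%) and the FOXH1 letters AATCCACA (0.817%) were in none of the 3. TATAAA (11.5%) was found in LINC01108, at -54. These are matches of letters in a window and describe no binding.

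PCAT14 (ENSG00000280623, chromosome 22, 23536881 to 23547797, plus strand) differed least between the libraries. It had 11682 and 14313 UMIs, or 117.3 (115.2 to 119.5) and 81.7 (80.3 to 83.0) CPM, a 1.44-fold lower level in the GATA3 KO library (1.40 to 1.47). It was found in 35.9% and 27.1% of cells at equal depth, and 10.2% and 8.30% of cells held 4 or more of its UMIs. The most UMIs of PCAT14 in a cell were 126 and 90.

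PCAT14 went with TFAP2A in both libraries. It was found in 179 of 254 WT cells with TFAP2A (70.5%, 64.5 to 76.0) and in 601 of 1919 cells without it (31.3%, 29.2 to 33.5). The GATA3 KO counts were 494 of 718 cells with TFAP2A (68.8%, 65.3 to 72.2) and 601 of 3320 without it (18.1%). The intervals of the shares in cells with TFAP2A overlapped between the libraries, and those in cells without it did not. PCAT14 was the 1 member found 2-fold more often with TFAP2A in the WT library, against 2.49% of genes. There were 2 in the GATA3 KO library, PCAT14 and AC131094.1, the latter on 20 cells in all, against 3.11%. Median depths with and without TFAP2A were 45826 and 47367 UMIs in the WT library and 44728.5 and 44900 UMIs in the GATA3 KO library.

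With more TFAP2A UMIs the share of PCAT14 was higher. In the GATA3 KO library it was 18.1% in cells with none, 58.0% with 1, 78.5% with 2 to 3, and 84.7% with 4 or more. In the WT library it was 31.3%, 64.9%, 87.0% and 83.3%, the last on 12 cells. Over the SOX2 bins it went from 72.7% to 49.9%, 24.1% and 11.4% in the GATA3 KO library, and from 53.8% to 29.97%, 20.1% and 14.3% in the WT library. With EOMES it was found in 58.1% (50.4 to 65.6) of GATA3 KO cells against 25.7% of cells without EOMES, and in 38.0% against 35.0% of WT cells.

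The libraries held the states in different shares. By the same 4 markers at equal depth, cells with MIXL1 or EOMES made up 41.0% of the WT library and 5.65% of the GATA3 KO library. Cells with TFAP2A but neither of these made up 6.67% and 16.4%, cells with SOX2 only 39.5% and 73.5%, and cells without any of these markers 12.7% and 4.51%. Levels of the lncRNAs were therefore also compared within each state. The shares cover kept cells only. In the WT library TFAP2A was at 16.7 CPM in kept cells and 32.2 CPM in cells with over 7500 genes. The GATA3 KO values were 37.7 and 37.8 CPM, and the effect of the limits on the shares of states was not tested.

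Most members also differed between the libraries inside the states, with exceptions by state. In cells with MIXL1 or EOMES, AC131094.1 stood at 85.0 CPM in the WT library and 5.13 in the GATA3 KO library, AL353751.1 at 48.9 and 2.03, AL009031.1 at 57.2 and 2.71, AC025171.5 at 21.4 and 1.06, and LINC00458 at 423.5 and 38.6. LNCPRESS1 was at 10.2 and 43.5 CPM in that state. The cells of this state were not alike in the libraries, since a class fixes which markers are found and not their levels. SOX2 was found in 34.9% of these cells in the WT library but in 71.9% in the GATA3 KO library. The MIXL1 level in them was 310.2 CPM in the WT library against 55.4 CPM in the GATA3 KO library. The part of these marker differences in the members' differences was not tested. Of the 9 members, 5 were at least 2-fold lower in this state and 2 higher (LNCPRESS1, LINC02334), against 2.26% and 2.64% of all genes of at least 20 CPM in the state.

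In cells with TFAP2A and without MIXL1 or EOMES, 5 members were lower and 1, LNCPRESS1, was higher, against 1.73% and 2.69% of genes. AC131094.1 was at 56.4 and 1.19 CPM there, LINC00458 at 128.5 and 5.76, and LNCPRESS1 at 11.6 and 29.7. In cells with SOX2 only, 5 members were lower (AC131094.1, AL353751.1, AL009031.1, LINC00458, LINC01108) and 1, LINC02334, was higher, against 1.07% and 1.76%. AC131094.1 was at 9.41 and 0.260 CPM there, LINC00458 at 140.1 and 17.0, and LNCPRESS1 at 25.9 and 49.9, a log2 ratio of 0.92. LINC02334 was at 0.754 and 4.78 CPM. AC025171.5, lower by 2-fold in the other states, had a log2 ratio of -0.67 there on 24 and 3 UMIs. LINC02334 had 0.67 in cells with TFAP2A, on 3 and 40 UMIs. The states were fixed by the markers alone, and the members of at least 20 CPM in a state are only some of the 9 counted.

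PCAT14 behaved differently from state to state. It was highest in cells with TFAP2A and without MIXL1 or EOMES in both libraries, at 439.0 CPM (422.3 to 456.1) in the WT library and 263.9 (258.0 to 269.9) in the GATA3 KO library. In cells with MIXL1 or EOMES it was at 113.2 and 159.4 CPM, in cells with none of the 4 markers at 242.5 and 185.4 CPM, and in cells with SOX2 only at 29.1 and 27.5 CPM. The log2 ratios were -0.73, 0.49, -0.39 and -0.08 in that order of states.

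**Figure D5:**
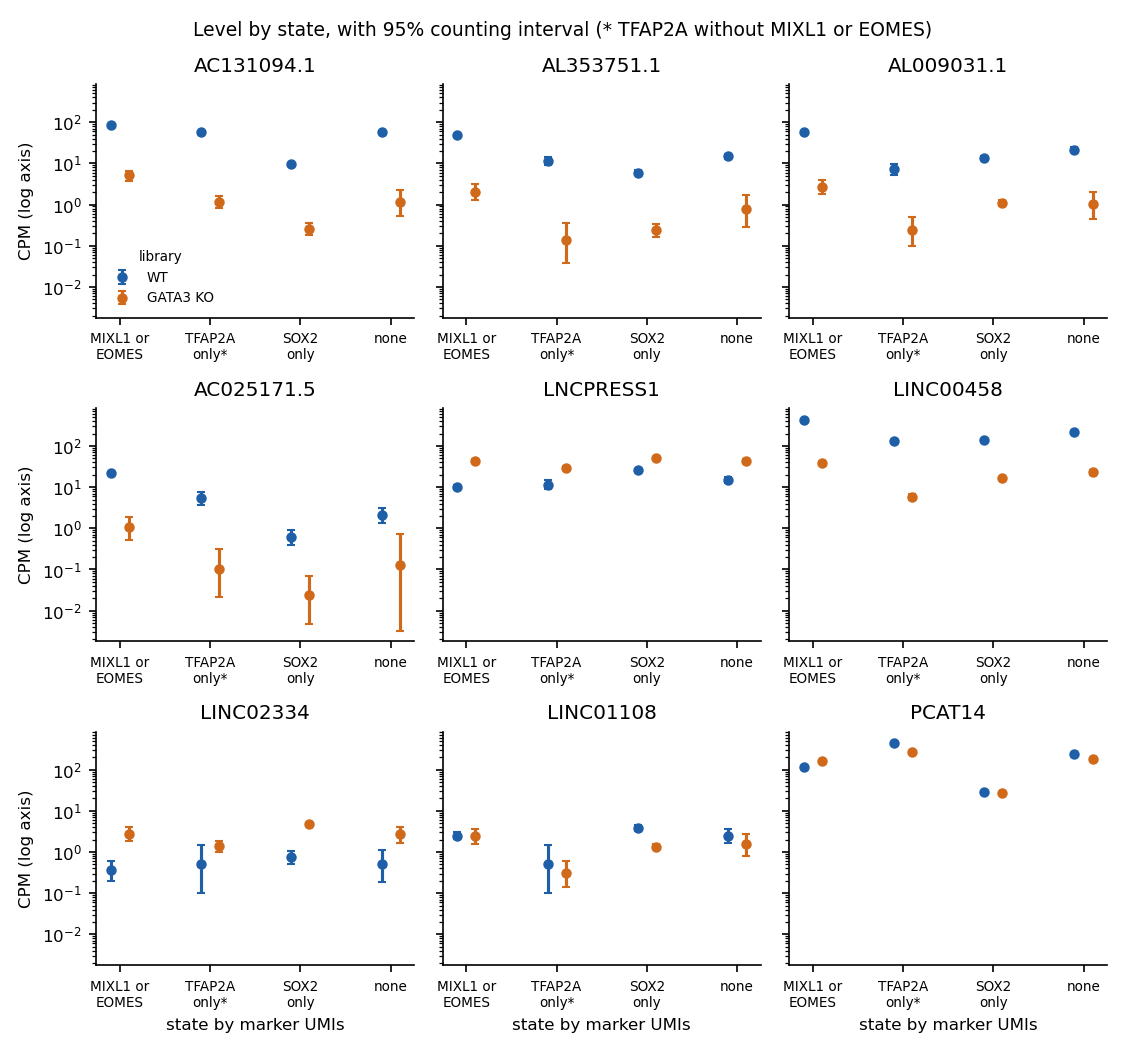
Level of each lncRNA (CPM, log axis) in 4 classes of cells set by MIXL1, EOMES, TFAP2A and SOX2 at 10000 UMIs per cell, in the WT and GATA3 KO libraries, with exact Poisson 95% intervals of counting error. AC131094.1 and LINC00458 are lower in the GATA3 KO library in every class, and PCAT14 is highest in the class with TFAP2A in both libraries.

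The share of each difference that goes with the mix of states was computed by giving the levels of the WT library the state shares of the GATA3 KO library. AC131094.1 would then stand at 23.8 CPM, a log2 change of -1.05 from its level in these cells, and the remaining change to the GATA3 KO library was -3.83. For AL353751.1 these steps were -1.29 and -3.01, for AL009031.1 -1.03 and -2.99, for AC025171.5 -1.56 and -1.75, and for LINC00458 -0.76 and -3.17. LNCPRESS1 had 0.36 and 1.02, LINC02334 0.12 and 1.58, LINC01108 0.09 and -0.88, and PCAT14 -0.06 and -0.45. MIXL1 itself, which set the states, had -2.43 and -2.35, so classes cut at 1 UMI did not hold its level equal between the libraries. The second step can therefore hold part of the mix as well, and how much was not tested. Both steps are of CPM + 1, which shrinks the second step where the GATA3 KO level lies under 1 CPM. AC025171.5 went from 9.94 to 2.71 and then 0.1035 CPM, and AL353751.1 from 25.7 to 9.87 and then 0.351 CPM. For such members the first step therefore looks too large beside the second.

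The genes whose counts were most like those of a member were found by Pearson's r of log2(UMI + 1) over the 2173 thinned WT cells, among genes of at least 20 CPM, and are a description over cells that share a library and a depth. SERPINE2, a secreted protease inhibitor (542.6 and 60.6 CPM in the WT and GATA3 KO libraries), was likest to AC131094.1 (r = 0.38), AL353751.1 (0.38) and LINC00458 (0.50), and second to LINC00458 for AL009031.1 (0.36). AC131094.1 was next like LINC00458 (0.34) and AL353751.1 (0.31), and AL353751.1 like LINC00458 (0.33) and MIXL1 (0.32). The r of AL009031.1 was 0.39 with LINC00458 and 0.33 with LINC01356, another lncRNA. AC025171.5 was likest to CER1, a secreted antagonist made in the early endoderm and streak (0.41), MIXL1 (0.35) and EOMES (0.29). LINC00458 was next like LINC01356 (0.46) and the neuropeptide gene GAL (0.41).

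PCAT14 was likest to HPGD, an enzyme of prostaglandin breakdown (0.66), CLDN10, a claudin of tight junctions (0.54), and NTS, the precursor of neurotensin (0.54). Over the 4038 GATA3 KO cells these 3 stood at 0.60, 0.60 and 0.65. For the members that were nearly absent there, the same pairs were lower, such as 0.16 for AC131094.1 and SERPINE2 and 0.06 for AC131094.1 and LINC00458. No gene reached r = 0.2 with LNCPRESS1, LINC02334 or LINC01108, whose counts are mostly 0 or 1 in a thinned cell.

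Several members lie within or beside protein-coding genes that also differed. AL353751.1 overlaps LIPA, a lysosomal lipase, on the opposite strand (13.8 and 5.80 CPM in the WT and GATA3 KO libraries) and IFIT2, an interferon-induced gene, on the same strand (1.998 and 0.103 CPM). AL009031.1 overlaps GMPR, a guanosine monophosphate reductase, on the opposite strand (12.9 and 0.970 CPM, log2 ratio -2.82). GMPR was found in 18.2% of the WT cells with AL009031.1 and in 8.50% of those without it. The strand setting of the counting is not given in the sources used here, so counts of the genes that overlap on opposite strands are uncertain. IFIT2 and AL353751.1 share a strand, so strand alone would not separate their reads, and their counts are uncertain too. These overlaps are those of GENCODE v44, which holds 33113 of the 33538 genes counted, and the reference used for counting may place them differently.

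The protein-coding gene nearest to AC025171.5, ANXA2R, lies 4598 bases away (2.90 and 0.126 CPM, log2 ratio -1.79). The protein-coding gene nearest to AC131094.1, GPM6A, lies 159737 bases away and stood at 2.39 and 1.32 CPM. TRPC4, a cation channel gene 64496 bases from LINC02334, was at 2.65 and 9.71 CPM (1.55). IFT22, 9568 bases from LNCPRESS1, was at 24.2 and 30.4 CPM (0.31), and BCR, 218844 bases from PCAT14, at 19.3 and 28.0 CPM (0.52). LINC00458 overlaps no protein-coding gene, and the nearest, OLFM4, lies 898198 bases away and had 0 and 1 UMI.

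Of 30 other lncRNAs listed for pluripotent or differentiating cells or as general nuclear transcripts, 21 were in the table. At least 2-fold lower in the GATA3 KO library were 3 (LINC01356 at -3.13, GATA6-AS1 at -1.59, LINC01198 at -1.36), none was higher by that size, and the median log2 ratio was -0.10. Only 6 of the 21 reached 20 CPM and 2 had no UMIs, so the pseudocount of 1 CPM holds many of these ratios near 0. LHX5-AS1, for one, had 4 and 173 UMIs in the WT and GATA3 KO libraries at a log2 ratio of 0.93, with an interval of 3.24 to 6.51 without the pseudocount. LINC00678, known from pluripotent cells, was at 153.8 and 167.4 CPM, LNCPRESS2 at 15.3 and 10.7 CPM, and LINC-ROR at 2.69 and 0.884 CPM, with a log2 interval of -1.90 to -1.31 without the pseudocount. The nuclear transcripts MALAT1 and NEAT1 were at 3287.1 and 2296.4 CPM and at 68.6 and 39.5 CPM. These 2 nuclear-retained RNAs were lower in the GATA3 KO library, as 5 of the members were, with a median log2 ratio of -0.65, and the part of RNA quality in the members' differences was not tested.

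Marker lists also differed between the libraries. The 10 primitive streak genes summed to 343.8 CPM in the WT library and 16.1 in the GATA3 KO library, with 8 of 10 at least 2-fold lower, none higher and MSGN1 at or near 0. The 6 endoderm genes summed to 25.01 and 3.37 CPM (4 lower), the 6 germ cell genes to 29.7 and 15.0 CPM (2 lower), the 12 amnion and trophectoderm genes to 78.8 and 111.9 CPM (2 higher), and the 8 neural ectoderm genes to 43.96 and 102.3 CPM (2 higher), of which IRX2 alone made 35.98 and 87.6 CPM. The 2 lower germ cell genes, SOX17 and PRDM1, are also in the endoderm list. Within the WT library, the streak list was higher in cells with a member than in cells without it by a log2 ratio of 2.67 for AC025171.5, 1.52 for AL353751.1, 1.23 for AL009031.1, 1.18 for AC131094.1 and 1.06 for LINC00458, and lower for LNCPRESS1, at -1.73. The amnion and trophectoderm list was higher in cells with PCAT14, by 2.04 in the WT library and 2.38 in the GATA3 KO library. The streak list holds MIXL1 and EOMES, and the amnion and trophectoderm list holds TFAP2A. These ratios are therefore not separate from the shares of members with those markers given above. The 15 S phase genes summed to 1218.9 and 1509.4 CPM and the 12 G2/M genes to 1505.2 and 1732.3 CPM. These sums, like the shares of states, cover kept cells only. The part of these lists in the members' differences was not tested.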

How the data were processed

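Single cells of a WT and a GATA3 KO library were measured, and samples were grouped by their labels alone. The deposited files hold UMI counts per gene and cell barcode, which the authors had made from 10x Genomics 3′ v3 libraries with Cell Ranger and its GRCh38 reference, unfiltered beyond cell calling. Every column of values was used.

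The limits on cells of the study (7500 genes, 25% mitochondrial counts) were applied, which left 99587274 and 175285931 UMIs. Counts of the kept cells were summed and given as CPM, with exact Poisson intervals. Shares of cells were taken after thinning to 10000 UMIs (seed 11), which left out 346 and 412 shallower cells, with exact Clopper-Pearson intervals. Ratios are log2 of CPM + 1, which understates the change of low genes, and folds without a pseudocount carry exact binomial intervals. All intervals are at 95% and cover counting error only, since with 1 library per group no replicates, tests or p-values were possible. A share of 0 allows up to 3 counts of the total. No doublet caller was run, and leaving out the deepest 10% of cells was tried instead. Cells were not clustered. A state is a set of markers found in a cell. Gene models came from GENCODE v44 for GRCh38 by gene identifier, which matched 33113 of 33538 genes, and promoters from RefSeq (GRCh38.p14).

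The genes named are the 9 members, for each up to 3 genes with the highest Pearson's r (at least 0.2) among genes of 20 CPM or more, the overlapping and nearest genes, the 4 markers, GATA3 and the listed lncRNAs. Genes next in rank among lncRNAs were named after their values were seen. The members and lists were chosen with earlier results of these data known, and the division of differences by the mix of states was added after the values were seen. Scripts used Python 3.11.15, numpy 2.4.6, scipy 1.17.1, pandas 2.3.3 and matplotlib 3.10.9, with edgeR 4.0.16 and DESeq2 1.42.0 in R 4.3.3 for library scaling factors alone, and were tested on simulated data. The end sequences of some members are not reported here.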

Additional observations from a re-analysis of the deposited data

Results flagged for a closer look

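PCAT14 differed between the libraries in opposite directions in different states. Its log2 ratio of the GATA3 KO library over the WT library was 0.49 in cells with MIXL1 or EOMES, -0.73 in cells with TFAP2A without MIXL1 or EOMES, and -0.39 in cells with none of the 4 markers. The counting intervals of these 3 ratios did not include 0, but with 1 library per group the difference between states was not tested.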

How the results depend on the processing

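No paired analysis was possible because there is 1 library per group. The count of 5 members lower in the GATA3 KO library did not move by over 1.5 times under any alternative tried. Of 158 alternative values of such counts, 126 stayed within 1.5 times and 32 moved. No direction of a member's ratio was reversed in 99 alternatives. Of these, 23 moved by more than the distance from the middle of the counting interval to its end. The count of 2 higher members was 1 with a pseudocount of 5 CPM, with members of at least 20 CPM only, and at a fold of 3. In the WT library, the 3 members more frequent with SOX2 became 0 over all deposited cells, 0 without the deepest 10% of cells, 1 at 20000 UMIs, 1 with at least 2 UMIs of the marker, 1 with members of at least 20 CPM and 0 at a fold of 3. The 4 less frequent with SOX2 became 1 without thinning and 2 at a fold of 3, the 4 with EOMES became 2 at a fold of 3, and the 1 with TFAP2A became 0 at 20000 UMIs, 2 with at least 2 UMIs of both genes and 0 at a fold of 3. In the GATA3 KO library, the 4 with SOX2 became 2 without the deepest 10% of cells, 2 with at least 2 UMIs of both genes, 1 with at least 2 UMIs of the marker, 1 with members of at least 20 CPM and 2 at a fold of 3. The 6 with MIXL1 and the 4 with EOMES became 2 and 2 with at least 2 UMIs of both genes, and the 3 less frequent with SOX2 became 1 without thinning. The 2 with TFAP2A became 1 over all deposited cells, with either limit on cells alone, without the deepest cells, at 20000 UMIs, with another seed, with at least 2 UMIs of the marker or of both genes, and at a fold of 3. The ratio of shares with and without MIXL1 in the WT library stayed above 2 in 10 of 10 settings for AC131094.1 (2.69 to 3.68), AL353751.1 (3.46 to 5.09), AL009031.1 (2.60 to 3.42) and AC025171.5 (9.15 to 21.7). That of LNCPRESS1 with SOX2 did so in 7 of 10 settings (1.79 to 3.10) and in 5 of 10 in the GATA3 KO library (1.47 to 4.09). That of PCAT14 with TFAP2A did so in 8 (1.74 to 4.19) and 10 (2.65 to 5.35). The setting of at least 2000 detected genes kept the same 2173 and 4038 thinned cells and repeated every share of the main setting. It therefore adds no support to these counts of settings or to the co-detection counts that stayed. The log2 ratio of PCAT14 was -0.86 over all deposited cells. TMM and DESeq2 scaling changed no count. The cause of these moves was not tested. At this depth the co-detection of AC131094.1, AL353751.1 and AC025171.5 in the GATA3 KO library rests on 20, 12 and 4 cells.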

Other observations

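Cells removed by the limits also held the members. In the WT library, PCAT14 was at 117.3 CPM in kept cells, 183.1 CPM in cells with over 7500 genes and 174.2 CPM in cells with over 25% mitochondrial counts, and 61.2% of its UMIs lay in removed cells. Of all 200569649 UMIs of that library, 99587274 lay in kept cells. For the other members the share in removed cells ran from 35.2% (AC025171.5) to 56.45% (LINC01108). Mitochondrial counts lower every CPM of the last class, so values per 1000000 non-mitochondrial UMIs are given too, in the same order of classes. On that scale PCAT14 was at 132.8, 209 and 345.1, AC131094.1 at 56.6, 53.1 and 40.9, and LINC00458 at 302.4, 280.5 and 243.9 in the WT library. In the GATA3 KO library LNCPRESS1 was at 51.9, 55.0 and 56.5, and LINC02334 at 4.53, 3.92 and 22.9.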
